A study of Homo sapiens with 24 samples.

Results

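Pyrimidine nucleotides are built de novo from small precursors, recovered from free nucleosides by salvage kinases, and made into precursors of DNA by ribonucleotide reductase and the thymidylate enzymes. Ribonucleotide reductase removes an oxygen from the ribose of nucleoside diphosphates, and its small subunit is made mainly in S phase. Folate enters the pathway where thymidylate synthase takes a methyl group from a folate cofactor. The genes described here are CAD, DHODH, UMPS, UCK2, CMPK1, DTYMK, DUT, RRM1, RRM2 and SAMHD1. They were chosen by symbol, and these 10 of the 23595 genes in the deposited tables were each found once in all 4 tables. All 10 passed the filter on low values in every comparison.

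Polyadenylated RNA came from 2 human acute myeloid leukaemia cell lines, the monocytic line U937 and IMS-M2, a line with a mutant NPM1 gene. The 8 groups of 3 libraries were U937 without folic acid (-FA) given OTX or DMSO, U937 with folic acid (+FA) given OTX or DMSO, IMS-M2 -FA given OTX or DMSO, and IMS-M2 +FA given OTX or DMSO. OTX is read here as the compound birabresib, which blocks BET bromodomain proteins, and DMSO is the solvent control. The labels give neither the dose of OTX nor the length of treatment or of folic acid removal. Each line is a single cell culture model, and the labels leave unsaid whether replicate libraries are independent cultures.

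Levels are FPKM, which count fragments relative to transcript length and library size, and the depth is unknown. Each library summed to between 522659 and 644841 FPKM. The BET readouts followed the labels: HEXIM1, an inhibitor of transcription elongation, was higher in OTX than in DMSO libraries in all 4 tables, and MYC, a growth transcription factor, was lower. The haematopoietic genes PTPRC, CD33, SPI1 and CEBPA were present in every group. They belong to a list of 14 haematopoietic and myeloid markers, of which 9 to 11 reached a mean of 1 FPKM in a group. The monocyte gene CD14 averaged at most 0.244 FPKM in any group, and CSF1R averaged 0.104 to 1.43 FPKM in the U937 groups. CD34 and KIT averaged at most 0.0119 and 0.166 FPKM in the U937 groups. The B cell gene MS4A1 and the epithelial gene EPCAM were at 0 FPKM in every group, but the cytotoxic lymphocyte gene NKG7 averaged 63.5 to 261 FPKM in the U937 groups, and the keratin KRT18 averaged 63.6 to 89.7 FPKM in the IMS-M2 groups. Summed over 14 haematopoietic and myeloid markers, OTX libraries had 903 to 976 FPKM against 1866 to 2264 FPKM in DMSO libraries of U937 -FA, and 673 to 697 FPKM against 924 to 1101 FPKM in U937 +FA. The same sum was 175 to 194 FPKM in OTX against 324 to 347 FPKM in DMSO libraries of IMS-M2 -FA, and 167 to 182 FPKM against 337 to 358 FPKM in IMS-M2 +FA. LYZ was the largest part of the U937 sums, at 446 and 1445 FPKM in OTX and DMSO of U937 -FA. PTPRC instead averaged 90.4 and 49.1 FPKM in these groups. Of 11 markers tested, 3 rose and 7 fell in U937 -FA, and 3 and 6 in U937 +FA. In IMS-M2 -FA, 0 rose and 10 fell, and in IMS-M2 +FA 1 and 9. Of all genes, 27.5% to 29.8% rose and 27.0% to 33.4% fell in the 4 tables. Summed over 16 lymphoid, erythroid, epithelial and stromal markers, of which 2 to 6 reached a mean of 1 FPKM in a group, no DMSO library was as low as the OTX libraries of its table. The part of these marker shifts in the results was not tested.

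The enzymes that make UMP, the parent pyrimidine nucleotide, were compared first between OTX and DMSO libraries. CAD, DHODH and UMPS fell in both lines, with and without folic acid. CAD carries out the opening reactions of the pathway as 1 large protein, DHODH oxidises dihydroorotate in the inner mitochondrial membrane, and UMPS turns orotate into UMP. The sizes differed. In U937 -FA the fall was 66.2% for CAD, 71.6% for DHODH and 46.3% for UMPS, and in IMS-M2 -FA it was 29.6%, 49.4% and 20.4% for the same genes. In bulk RNA, fewer cells of a type and less RNA per cell cannot be told apart.

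Because these genes fell together while RRM2 rose, the 250 bases upstream of their start sites are shown, in lower case with motif matches in capitals. The sequences are from RefSeq on GRCh38.p14, where all 10 genes had an entry. The expression tables use hg19, so these coordinates are not theirs. The motifs searched on both strands were the E-box CACGTG, the CCAAT box CCAAT, the GC box GGGCGG, and 4 forms of the E2F motif. These were TTTCCCG, its variant TTTGGCG, the variant TTTCGCG and the variant TTTGCCG. A match on the other strand appears as its reverse complement. All 4 windows lie on the plus strand, at chr2:27217119-27217368 for CAD, chr16:72008494-72008743 for DHODH, chr3:124730202-124730451 for UMPS and chr2:10122489-10122738 for the first of 2 RRM2 starts.
CAD: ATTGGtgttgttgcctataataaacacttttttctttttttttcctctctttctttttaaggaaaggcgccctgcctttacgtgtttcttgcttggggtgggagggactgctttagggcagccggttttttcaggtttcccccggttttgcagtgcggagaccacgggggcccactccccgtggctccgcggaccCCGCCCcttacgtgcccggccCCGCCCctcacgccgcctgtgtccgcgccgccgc
DHODH: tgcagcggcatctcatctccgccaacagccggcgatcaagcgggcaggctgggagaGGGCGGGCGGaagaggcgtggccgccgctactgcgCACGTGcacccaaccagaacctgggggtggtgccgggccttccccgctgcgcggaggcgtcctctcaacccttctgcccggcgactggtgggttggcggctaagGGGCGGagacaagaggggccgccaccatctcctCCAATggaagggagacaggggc
UMPS: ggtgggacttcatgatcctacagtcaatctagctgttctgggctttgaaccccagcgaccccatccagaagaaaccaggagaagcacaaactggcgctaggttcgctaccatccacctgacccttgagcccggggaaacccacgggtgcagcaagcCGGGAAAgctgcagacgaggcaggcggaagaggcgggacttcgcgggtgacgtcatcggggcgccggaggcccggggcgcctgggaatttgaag
RRM2: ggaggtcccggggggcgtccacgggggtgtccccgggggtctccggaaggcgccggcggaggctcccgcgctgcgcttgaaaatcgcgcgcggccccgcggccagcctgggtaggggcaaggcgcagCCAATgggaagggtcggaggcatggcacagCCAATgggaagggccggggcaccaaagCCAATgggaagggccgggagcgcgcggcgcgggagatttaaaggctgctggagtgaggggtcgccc

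The DHODH window held an E-box at -159 to -154 from the start, and the windows of CAD, UMPS and RRM2 held none. Bases after the start were not searched. An E-box was present in 6.34% of 35116 promoter windows of this length. The RRM2 window held 3 CCAAT boxes, at -123 to -119, -93 to -89 and -66 to -62, and 2.93% of all windows held 3 or more. CAD had 1 CCAAT match, on the other strand at the far end of the window, and 2 GC boxes on the other strand at -55 to -50 and -34 to -29. DHODH had 1 CCAAT box and 3 GC boxes, of which the first pair overlap. UMPS had 1 E2F form on the other strand at -94 to -88. Among the windows not shown, UCK2, which also fell, had 1 CCAAT box and 4 GC boxes. RRM1 had 1 CCAAT box and 1 GC box. DTYMK had 2 CCAAT boxes, 1 GC box and 1 E2F form, and SAMHD1 had 2 CCAAT boxes and 1 E2F form. The second RRM2 start had 1 CCAAT box and 1 GC box, and the windows of CMPK1 and DUT held no CCAAT box. DUT start 4 had 2 GC boxes and 2 E2F forms, DUT start 2 had 2 GC boxes and DUT start 3 had 1. Over all windows, 32.0% held a CCAAT box, 42.6% a GC box and 7.33% an E2F form. These are letter matches and not measured binding sites.

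CAD lies on chromosome 2 from 27440258 to 27466654 in hg19, and like the next 2 genes it overlaps no other gene in the tables. Libraries are listed as replicates 1, 2 and 3, or columns 0, 1 and 2 in U937 -FA. CAD had 23.6, 19.4 and 22.2 FPKM in U937 -FA OTX libraries, against 65.7, 55.8 and 71.4 FPKM in the DMSO libraries. In U937 +FA it had 26.2, 27.4 and 28.6 FPKM with OTX, against 56.9, 45.0 and 48.8 FPKM with DMSO. No OTX library reached any DMSO library of its table, and the 6 U937 OTX libraries lay close together while the DMSO libraries without folic acid ran higher than most of those with it. IMS-M2 -FA OTX libraries had 25.4, 22.4 and 25.1 FPKM, against 34.1, 33.1 and 36.5 FPKM with DMSO. IMS-M2 +FA OTX libraries had 27.2, 21.7 and 27.3 FPKM, against 43.2, 42.4 and 54.3 FPKM with DMSO. The groups again did not overlap within either table, and the OTX libraries of all 4 tables lay in a narrow band, from 19.4 to 28.6 FPKM. On the log2(FPKM + 1) scale the change was -1.52 ± 0.11 in U937 -FA (limma, SE, adjusted p = 8.58e-07), -0.84 ± 0.11 in U937 +FA (adjusted p = 7.52e-05), -0.49 ± 0.11 in IMS-M2 -FA (adjusted p = 0.00226) and -0.85 ± 0.11 in IMS-M2 +FA (adjusted p = 2.77e-05).

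DHODH, on chromosome 16 from 72042643 to 72059316, was expressed at much lower FPKM than CAD. It had 2.61, 2.21 and 2.171 FPKM in U937 -FA OTX libraries, against 8.82, 7.86 and 7.91 FPKM in the DMSO libraries. In U937 +FA it had 3.01, 3.04 and 2.75 FPKM with OTX, against 8.92, 9.16 and 10.4 FPKM with DMSO. The U937 DMSO libraries were far above the OTX libraries, whatever the folic acid. With OTX, IMS-M2 -FA libraries had 3.45, 3.13 and 3.21 FPKM, against 6.92, 5.98 and 6.45 FPKM with DMSO. IMS-M2 +FA OTX libraries had 4.71, 4.25 and 3.96 FPKM, against 8.29, 5.96 and 7.497 FPKM with DMSO. The groups did not overlap there either, though DMSO replicate 2 of IMS-M2 +FA lay nearer to the OTX libraries than the others did. The log2 change was -1.47 ± 0.08 and -1.41 ± 0.08 in U937 -FA and U937 +FA, and -0.80 ± 0.10 and -0.63 ± 0.10 in IMS-M2 -FA and IMS-M2 +FA. All 4 passed the limma test, with adjusted p of 1.2e-07, 1.85e-07, 2.58e-05 and 0.000169 in that order.

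UMPS, on chromosome 3 from 124449213 to 124468119, showed the smallest changes of these 3 genes. It had 4.55, 4.41 and 4.47 FPKM in U937 -FA OTX libraries, against 8.53, 8.49 and 7.997 FPKM in the DMSO libraries, and in U937 +FA 5.43, 4.96 and 5.71 FPKM against 9.01, 8.23 and 7.71 FPKM. IMS-M2 -FA OTX libraries had 9.93, 9.58 and 9.59 FPKM, against 12.3, 12.2 and 12.001 FPKM with DMSO, and in IMS-M2 +FA 9.28, 9.75 and 9.72 FPKM against 11.1, 13.0 and 11.9 FPKM. OTX and DMSO libraries did not overlap in any table. The log2 change was -0.77 ± 0.07 in U937 -FA, -0.55 ± 0.07 in U937 +FA, -0.30 ± 0.07 in IMS-M2 -FA and -0.30 ± 0.07 in IMS-M2 +FA, with the largest limma adjusted p at 0.00208. The levels of UMPS were ordered by line: each of the 4 IMS-M2 means, 9.58 to 12.2 FPKM, was above each of the 4 U937 means, 4.48 to 8.34 FPKM. The tables are not stated to share a normalization, so this order is a description without a test.

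**Figure D1:**
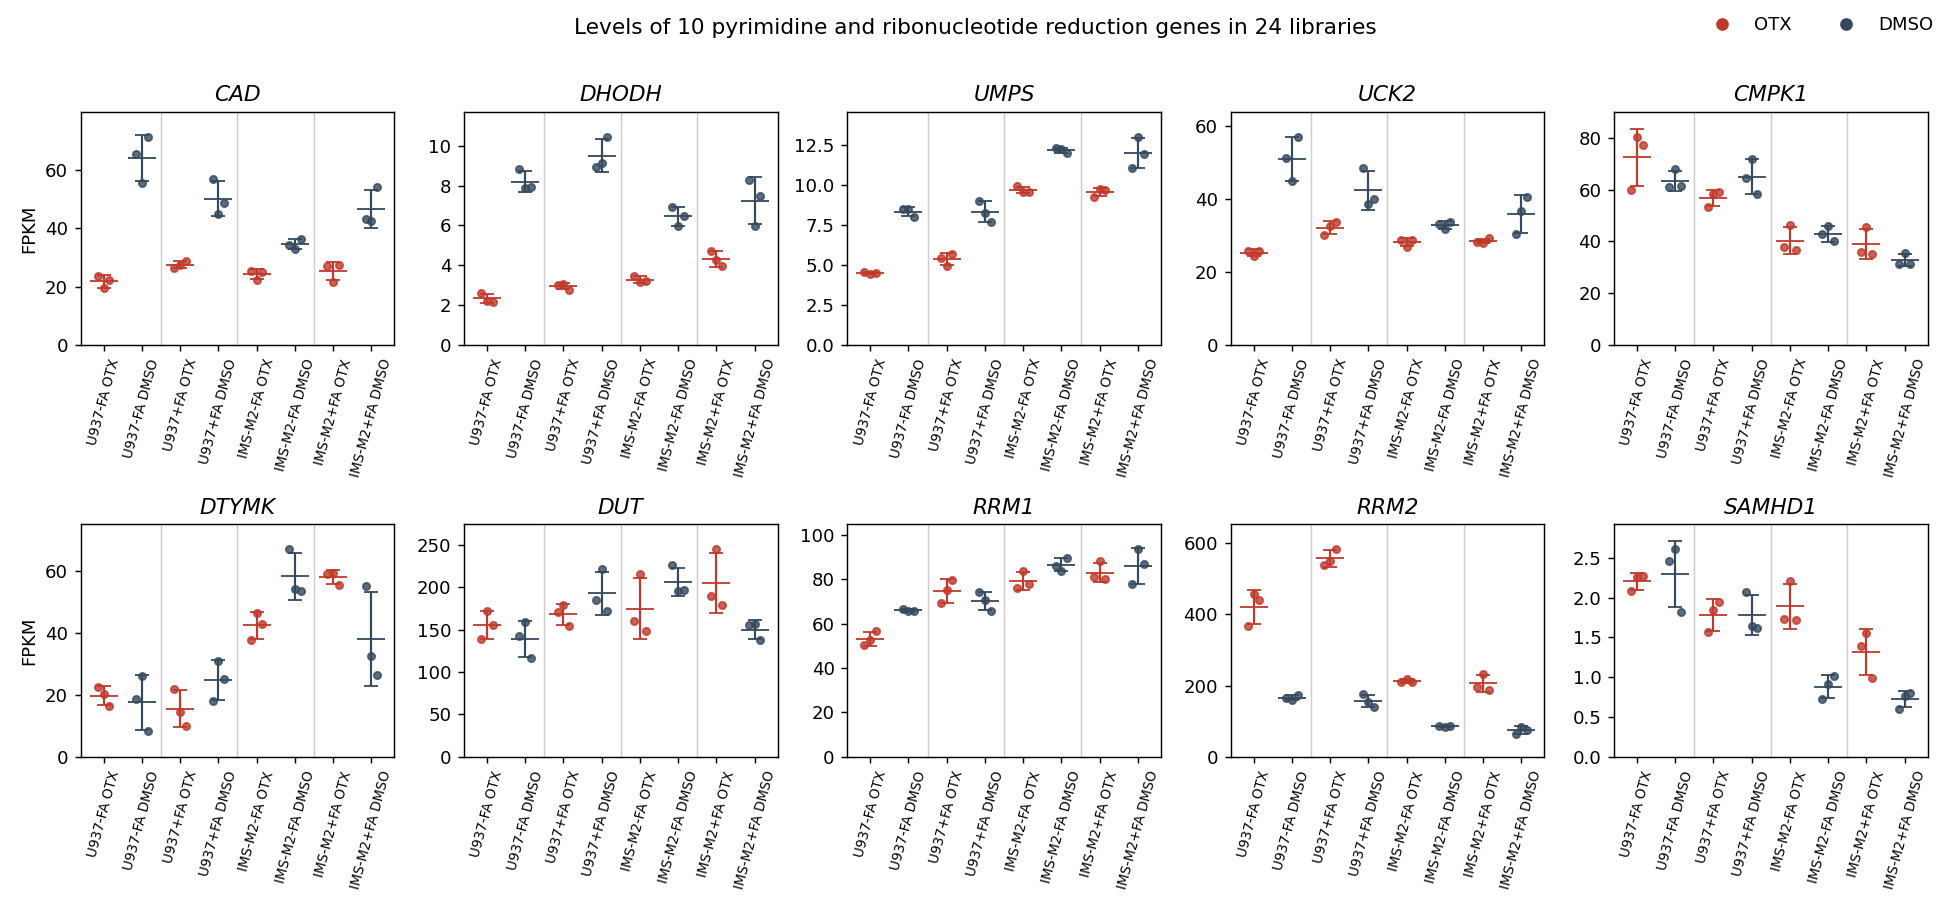
FPKM of the 10 genes in every library (points) of the 8 groups, OTX beside DMSO for each line and folic acid condition, with the mean as a dash and the SD as a bar (n = 3). The OTX and DMSO points of CAD, DHODH, UMPS, UCK2 and RRM2 are separate in every table. The share of all genes with separate points was not counted. RRM2 reaches 557 FPKM on average in U937 +FA OTX libraries.

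UCK2 makes UMP and CMP from uridine and cytidine, and so feeds the same pool by salvage. It lies on chromosome 1 from 165796732 to 165880855, and the tables list the microRNA gene MIR3658 at the same position. UCK2 had 25.8, 24.2 and 25.9 FPKM in U937 -FA OTX libraries, against 51.2, 45.0 and 57.0 FPKM in the DMSO libraries, and in U937 +FA 30.1, 32.6 and 33.7 FPKM against 48.4, 38.7 and 39.9 FPKM. With OTX, IMS-M2 -FA libraries had 28.8, 26.8 and 28.7 FPKM, against 33.1, 31.7 and 33.7 FPKM with DMSO, and in IMS-M2 +FA 28.1, 28.0 and 29.2 FPKM against 30.4, 36.7 and 40.6 FPKM. The OTX libraries were below the DMSO libraries of their table throughout, by a wide margin only in U937 -FA. The log2 change was -0.98 ± 0.11 in U937 -FA (limma adjusted p = 1.26e-05), -0.38 ± 0.11 in U937 +FA (adjusted p = 0.00901) and -0.32 ± 0.09 in IMS-M2 +FA (adjusted p = 0.00904). In IMS-M2 -FA it was -0.22 ± 0.09 (limma adjusted p = 0.0574), which did not pass. That value fell under the threshold when libraries were rescaled by median ratios (adjusted p = 0.0358) or to a sum of 1000000 (adjusted p = 0.0118), or when the table was fitted alone (adjusted p = 0.0164).

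Over the 24 libraries, centred within each table, CAD, DHODH, UMPS and UCK2 were correlated with each other at Pearson r of 0.845 to 0.959. The same measure gave -0.948 between DHODH and RRM2 and -0.882 between CAD and RRM2. These values describe libraries that share the OTX and DMSO groups, so they mostly restate the changes above. The genes nearest to CAD by this measure, among 8429 genes, were PPRC1 (r = 0.992), SLC43A3 (r = 0.990), MRPS2, NOL6 and MMS19 (r = 0.988 each).

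The CTP synthases fell as well where they were tested. Of the de novo and CTP list, all 5 genes tested fell in U937 -FA and in U937 +FA, and all 4 tested fell in IMS-M2 -FA and in IMS-M2 +FA. The list holds CAD, DHODH and UMPS themselves, so its counts and medians mostly restate the falls above. Over all genes tested, 31.7% fell in U937 -FA, 27.0% in U937 +FA, 30.0% in IMS-M2 -FA and 33.4% in IMS-M2 +FA. The list medians were -0.84, -0.67, -0.40 and -0.46 on the log2 scale, beside -0.02, 0.02, -0.01 and -0.03 for all genes tested. CTPS2, a CTP synthase, averaged 1.01 ± 0.109 FPKM in OTX and 2.48 ± 0.083 FPKM in DMSO libraries of U937 -FA (SD, n = 3 each), and 1.44 ± 0.18 FPKM in OTX and 2.87 ± 0.30 FPKM in DMSO libraries of U937 +FA. In all 12 IMS-M2 libraries it was listed at 0 FPKM and was not tested there. Of the nucleoside transporters, the main equilibrative carrier SLC29A1 fell in all 4 tables, with log2 changes of -1.66, -1.20, -0.68 and -0.76 in U937 -FA, U937 +FA, IMS-M2 -FA and IMS-M2 +FA. SLC29A2, a related carrier, fell in IMS-M2 -FA and IMS-M2 +FA (log2 -0.82 and -1.38) and was below 1 FPKM in every U937 group.

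The next genes phosphorylate nucleotides or guard the thymidylate branch. CMPK1, on chromosome 1 from 47799469 to 47844511, turns UMP and CMP into their diphosphates. It had 60.0, 80.4 and 77.5 FPKM in U937 -FA OTX libraries, against 61.2, 67.9 and 61.5 FPKM in the DMSO libraries, and in U937 +FA 53.2, 58.4 and 59.1 FPKM against 64.4, 72.0 and 58.5 FPKM. IMS-M2 -FA OTX libraries had 37.8, 46.4 and 36.8 FPKM, against 42.7, 46.0 and 40.1 FPKM with DMSO, and in IMS-M2 +FA 35.9, 45.6 and 35.1 FPKM against 31.4, 35.6 and 31.4 FPKM. The groups overlapped in every table. The log2 change was 0.18 in U937 -FA (95% interval -0.07 to 0.44), -0.19 in U937 +FA (-0.44 to 0.07), -0.09 in IMS-M2 -FA (-0.34 to 0.16) and 0.23 in IMS-M2 +FA (-0.02 to 0.48), and none passed the limma test. Without OTX column 0, the U937 -FA change was 0.31 and passed (limma adjusted p = 0.0247).

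DTYMK, the kinase that makes dTDP from dTMP, lies on chromosome 2 from 242615157 to 242626383 and varied most between libraries of a group. It had 22.5, 20.2 and 16.5 FPKM in U937 -FA OTX libraries, against 18.5, 26.1 and 8.21 FPKM in the DMSO libraries, and in U937 +FA 22.0, 14.5 and 10.1 FPKM against 18.2, 31.1 and 25.3 FPKM. The U937 groups overlapped, and the changes of 0.28 and -0.68 in U937 -FA and U937 +FA did not pass the limma test. With OTX, IMS-M2 -FA libraries had 37.9, 46.7 and 43.0 FPKM, against 67.1, 54.3 and 53.8 FPKM with DMSO, a log2 change of -0.45 (limma adjusted p = 0.0723). IMS-M2 +FA OTX libraries had 59.1, 59.6 and 55.6 FPKM, against 55.3, 32.5 and 26.5 FPKM with DMSO. It rose there by 0.66 ± 0.20 (limma adjusted p = 0.0113), although DMSO replicate 1 reached almost the lowest OTX library. The call was lost without DMSO replicate 3 (adjusted p = 0.0507), and the IMS-M2 -FA change passed when its table was fitted alone (adjusted p = 0.00412).

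DUT, on chromosome 15 from 48623621 to 48635570, hydrolyses dUTP, which supplies dUMP and keeps uracil out of DNA. It had 139, 172 and 156 FPKM in U937 -FA OTX libraries, against 143, 159 and 117 FPKM in the DMSO libraries, and in U937 +FA 171, 179 and 154 FPKM against 186, 221 and 172 FPKM. IMS-M2 -FA OTX libraries had 159.9, 216 and 148 FPKM, against 226, 196 and 197 FPKM with DMSO, and in IMS-M2 +FA 189.8, 245 and 179 FPKM against 156, 157 and 138 FPKM. The groups were apart in IMS-M2 +FA, where DUT rose by 0.43 ± 0.14 (limma adjusted p = 0.0201). They overlapped in the other tables, where the changes of 0.16, -0.19 and -0.25 in U937 -FA, U937 +FA and IMS-M2 -FA did not pass. The IMS-M2 +FA call was lost without DMSO replicate 3 (adjusted p = 0.0676) or without OTX replicate 2 (adjusted p = 0.0963), and without OTX replicate 2 the IMS-M2 -FA change of -0.42 passed (adjusted p = 0.0192).

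Around these genes, the nucleotide kinase and thymidylate lists held calls in both directions. Over all genes tested, 28.0% rose and 31.7% fell in U937 -FA, 29.1% and 27.0% in U937 +FA, 27.5% and 30.0% in IMS-M2 -FA, and 29.8% and 33.4% in IMS-M2 +FA. Among 11 kinases, 2 rose and 5 fell in U937 -FA, 1 and 5 in U937 +FA, 2 and 5 in IMS-M2 -FA, and 3 and 5 in IMS-M2 +FA. NME1, a nucleoside diphosphate kinase, fell in all 4 tables, with log2 changes of -2.24, -1.60, -0.98 and -1.11 in the same order. NME1 shares sequence with its neighbour NME2, so how the authors' counting split their reads is uncertain. GUK1, the GMP kinase, rose in all 4 tables, with log2 changes of 0.35, 0.55, 0.50 and 0.45, and the mitochondrial kinase CMPK2 fell in all 4, with log2 changes of -0.61, -0.59, -1.21 and -1.19. Among 9 thymidylate genes, 1 rose and 4 fell in U937 -FA, 3 and 4 in U937 +FA, 2 and 3 in IMS-M2 -FA, and 3 and 3 in IMS-M2 +FA.

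Thymidylate synthase itself, TYMS, rose in U937 +FA, at 157, 186 and 221 FPKM in OTX libraries, against 134, 101.2 and 92.1 FPKM in DMSO libraries (log2 0.78, limma adjusted p = 0.00288). Its change was -0.19 in U937 -FA, 0.17 in IMS-M2 -FA and -0.06 in IMS-M2 +FA, none past the test. The difference in OTX change between U937 -FA and U937 +FA, -0.97 (95% interval -1.52 to -0.42), did not pass either (limma adjusted p = 0.0536). DCTD, which makes dUMP from dCMP, and MTHFD1, which makes the cytosolic folate cofactors, fell in all 4 tables. The log2 changes of DCTD were -0.92, -0.60, -0.27 and -0.60, and those of MTHFD1 were -1.19, -0.81, -0.52 and -0.58. The IMS-M2 -FA call of DCTD was lost without DMSO replicate 1 (limma adjusted p = 0.0501).

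The strongest rise among the 10 genes was that of RRM2, the S phase small subunit of ribonucleotide reductase. It lies on chromosome 2 from 10262695 to 10271546 and overlaps no other gene in the tables. RRM2 had 366, 456 and 439 FPKM in U937 -FA OTX libraries, against 165, 159 and 174 FPKM in the DMSO libraries. In U937 +FA it had 539, 549 and 583 FPKM with OTX, against 175, 155 and 139 FPKM with DMSO. No DMSO library came near an OTX library, and the U937 OTX libraries with folic acid were all above those without it. With OTX, IMS-M2 -FA libraries had 209, 219 and 209.6 FPKM, against 85.7, 83.3 and 86.3 FPKM with DMSO. IMS-M2 +FA OTX libraries had 197, 232 and 189 FPKM, against 64.2, 84.9 and 75.9 FPKM with DMSO. The separation was as clean in IMS-M2, at about the same OTX level in both folic acid conditions. The mean in OTX over that in DMSO libraries was 2.54 in U937 -FA, 3.56 in U937 +FA, 2.50 in IMS-M2 -FA and 2.75 in IMS-M2 +FA. The log2 changes were 1.33 ± 0.11, 1.83 ± 0.11, 1.31 ± 0.10 and 1.45 ± 0.10 in that order, with the largest limma adjusted p at 1.34e-06.

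RRM1, the large subunit that holds the catalytic and regulatory sites, did not move with RRM2. It lies on chromosome 11 from 4115924 to 4160106. It had 50.3, 52.5 and 56.8 FPKM in U937 -FA OTX libraries, against 66.8, 65.7 and 65.8 FPKM in the DMSO libraries, and it fell there by 0.31 ± 0.08 (limma adjusted p = 0.00554). After rescaling to a sum of 1000000 per library this change was -0.16 and did not pass (adjusted p = 0.116). In U937 +FA it had 69.2, 75.3 and 79.7 FPKM with OTX, against 74.1, 70.5 and 65.9 FPKM with DMSO, with overlapping groups. IMS-M2 -FA OTX libraries had 76.2, 83.9 and 77.7 FPKM, against 86.1, 83.8 and 89.8 FPKM with DMSO, and in IMS-M2 +FA 81.1, 88.1 and 80.0 FPKM against 77.7, 93.6 and 86.9 FPKM. The 95% intervals of the log2 change were -0.09 to 0.26 in U937 +FA, -0.30 to 0.05 in IMS-M2 -FA and -0.23 to 0.13 in IMS-M2 +FA, so none passed. Within a library, the FPKM of RRM2 over that of RRM1 was 7.28 to 8.70 in OTX and 2.41 to 2.64 in DMSO libraries of U937 -FA, and 7.28 to 7.79 and 2.12 to 2.36 in U937 +FA. It was 2.61 to 2.74 in OTX and 0.961 to 0.996 in DMSO libraries of IMS-M2 -FA, and 2.36 to 2.64 and 0.826 to 0.907 in IMS-M2 +FA. The ratio of OTX libraries was thus clear of that of DMSO libraries in every table.

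Of the 7 genes of ribonucleotide reductase and its reductants, 2 rose and 2 fell in U937 -FA, in U937 +FA and in IMS-M2 +FA, and 3 rose and 1 fell in IMS-M2 -FA. Of all genes, 27.5% to 29.8% rose and 27.0% to 33.4% fell in the 4 tables, so the 2 and 2 of 7 lie near the background. RRM2B, the alternative small subunit known as a p53 target, rose with RRM2 in all 4 tables. It averaged 14.3 ± 2.21 FPKM in OTX and 4.62 ± 1.21 FPKM in DMSO libraries of U937 -FA, and 9.67 ± 1.05 and 5.49 ± 0.994 FPKM in U937 +FA. In IMS-M2 -FA it averaged 19.0 ± 2.54 and 12.1 ± 1.117 FPKM, and in IMS-M2 +FA 17.6 ± 2.71 and 8.51 ± 1.71 FPKM (SD, n = 3 each). The electron carriers GLRX, glutaredoxin, and TXN, thioredoxin, serve the reductase. GLRX fell in IMS-M2 -FA and IMS-M2 +FA (log2 -0.75 and -0.68), and its call in U937 +FA (log2 -0.27) was lost without any 1 of the 6 libraries (limma adjusted p up to 0.177). TXN fell in U937 -FA (log2 -0.61). Its call in U937 +FA (log2 -0.38) was lost without DMSO replicate 1 or 2 or OTX replicate 1 (limma adjusted p up to 0.137). Its call in IMS-M2 +FA (log2 -0.32) was lost without DMSO replicate 2 or 3 or OTX replicate 1 or 3 (limma adjusted p up to 0.18). The salvage enzyme TK1, the S phase thymidine kinase, rose in all 4 tables, with log2 changes of 0.59, 1.21, 0.70 and 0.75.

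SAMHD1 breaks down deoxynucleoside triphosphates and so opposes the reductase. By FPKM, which is per length, it was the lowest of the 10 genes, and lies on chromosome 20 from 35504570 to 35580246, where the tables list C20orf118 at the same position. It had 1.73, 2.21 and 1.72 FPKM in IMS-M2 -FA OTX libraries, against 0.727, 0.910 and 1.01 FPKM in the DMSO libraries. IMS-M2 +FA OTX libraries had 1.39, 1.56 and 0.989 FPKM, against 0.606, 0.766 and 0.803 FPKM with DMSO. All 6 IMS-M2 OTX libraries were above the DMSO libraries of their table, and the OTX mean was 2.14 and 1.81 times the DMSO mean in IMS-M2 -FA and IMS-M2 +FA. The log2 changes were 0.62 ± 0.11 (limma adjusted p = 0.000335) and 0.42 ± 0.11 (adjusted p = 0.0045), and 1.02 and 0.76 with a pseudocount of 0.1 FPKM. In IMS-M2 only the OTX groups reached a mean of 1 FPKM, so SAMHD1 passed the filter through the groups where it was high. With no filter, the limma adjusted p was 0.000849 in IMS-M2 -FA and 0.00744 in IMS-M2 +FA. In U937 -FA it had 2.08, 2.26 and 2.27 FPKM with OTX, against 2.46, 2.61 and 1.82 FPKM with DMSO, and in U937 +FA 1.56, 1.85 and 1.95 FPKM against 2.06, 1.65 and 1.62 FPKM. The U937 groups overlapped, and their 95% intervals were -0.26 to 0.19 and -0.22 to 0.23.

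Counted over the 10 genes, 1 rose and 5 fell in U937 -FA, where 28.0% and 31.7% of all genes tested rose and fell. In U937 +FA, 1 rose and 4 fell, beside 29.1% and 27.0% of all genes. In IMS-M2 -FA, 2 rose and 3 fell, beside 27.5% and 30.0%, and in IMS-M2 +FA, 4 rose and 4 fell, beside 29.8% and 33.4%. These counts lie within a background in which most genes were called. The medians of the 10 genes were -0.17, -0.29, -0.24 and 0.09 on the log2 scale, in the same order of tables. CAD, DHODH, UMPS and RRM2 were called in all 4 comparisons and kept their calls in every alternative setting that was run and that tested them. The share of all genes called in all 4 comparisons was not counted, so these 4 genes cannot be set against it.

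**Figure D2:**
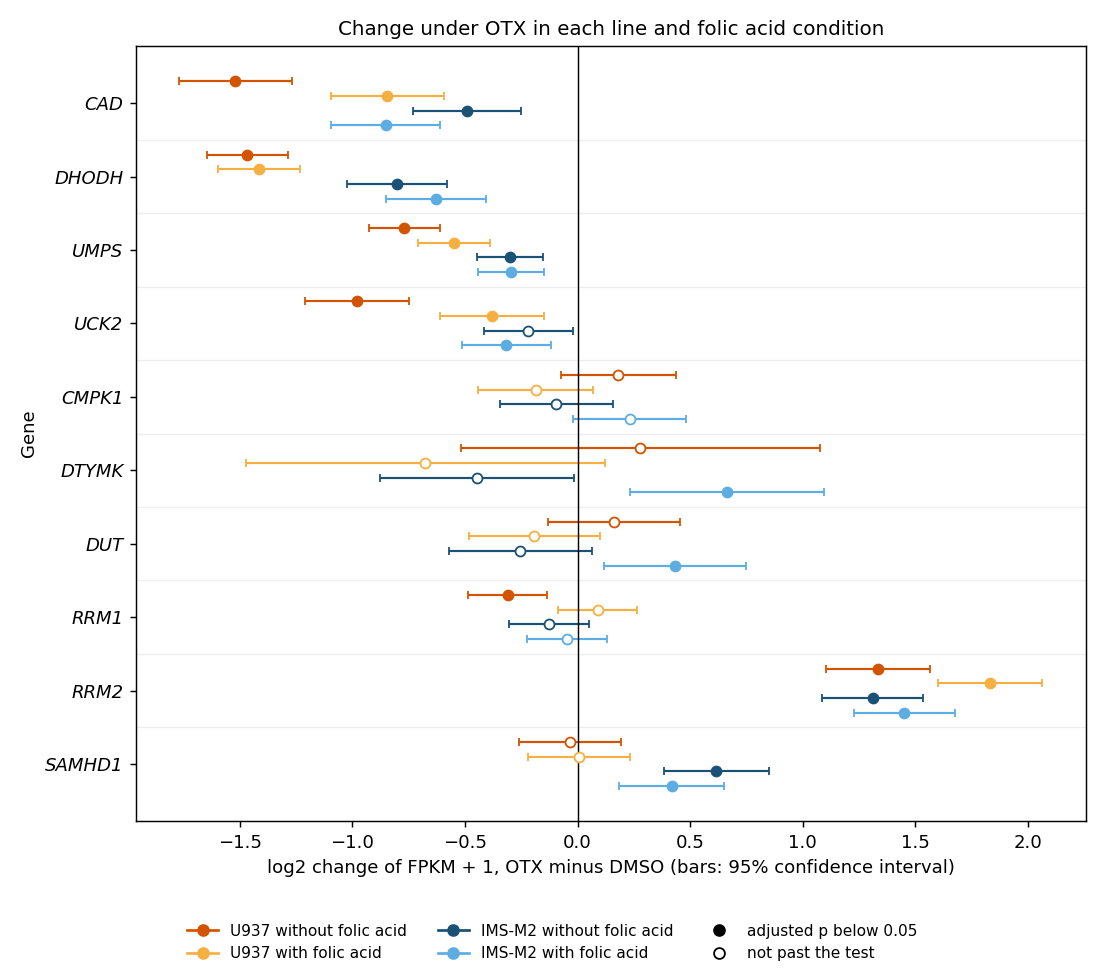
Log2 change (OTX minus DMSO, log2(FPKM + 1) scale) of the 10 genes in the 4 tables, with 95% intervals from limma. Filled markers passed the adjusted p threshold of 0.05 and open markers did not. CAD, DHODH and UMPS lie below 0 and RRM2 lies above 0 in every table, while all 4 markers of CMPK1 are unfilled.

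Outside the de novo list, the pathway lists held calls in both directions, except the transporters in U937, where all calls were falls. Beside them, 27.5% to 29.8% of all genes rose and 27.0% to 33.4% fell in the 4 tables. In the salvage list, 3 rose and 5 fell of 12 tested in U937 -FA, 2 and 4 of 12 in U937 +FA, 1 and 3 of 11 in IMS-M2 -FA, and 3 and 4 of 11 in IMS-M2 +FA. UPP1, uridine phosphorylase, fell in IMS-M2 -FA and IMS-M2 +FA (log2 -1.20 and -1.23) and did not pass in U937. CDA, cytidine deaminase, averaged 58.2 ± 6.13 FPKM in OTX and 86.0 ± 9.63 FPKM in DMSO libraries of U937 -FA, and fell there and in U937 +FA (log2 -0.55 and -0.68). It was near 0 in IMS-M2. Among breakdown and pool control genes, 2 rose and 6 fell of 14 in U937 -FA, 1 and 9 of 14 in U937 +FA, 3 and 4 of 13 in IMS-M2 -FA, and 5 and 4 of 13 in IMS-M2 +FA. DNPH1, which cleaves hydroxymethyl-dUMP, fell in all 4 tables, with log2 changes of -1.83, -1.67, -1.79 and -1.89, and DCTPP1, a dCTP pyrophosphatase, with -0.90, -1.13, -0.95 and -0.47. Among transporters, 0 rose and 2 fell of 4 tested in U937 -FA and in U937 +FA, 1 rose and 3 fell of 5 in IMS-M2 -FA, and 2 rose and 3 fell of 5 in IMS-M2 +FA.

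Since RRM2 and TK1 are S phase genes, 38 other S phase and replication genes were counted beside them. In U937 -FA, 4 rose and 20 fell, and in U937 +FA, 9 rose and 6 fell. In IMS-M2 -FA, 4 rose and 17 fell, and in IMS-M2 +FA, 10 rose and 14 fell. The list medians were -0.36, 0.06, -0.19 and -0.02 on the log2 scale in that order. The shares of all genes that fell were 31.7%, 27.0%, 30.0% and 33.4%, and 28.0%, 29.1%, 27.5% and 29.8% rose, so the IMS-M2 +FA counts lie near the background. In the direct test of the OTX change without minus with folic acid, 7 of the 38 genes were lower in U937, 0 were higher and 31 did not pass. Of all genes, 1.27% were lower and 0.741% higher in that U937 test, whose counts were unstable when 1 library was left out. In IMS-M2, 2 of the 38 were lower, 0 higher and 36 did not pass, beside 3.61% of all genes lower and 3.33% higher. CCNE2, a G1/S cyclin, rose in all 4 tables (log2 1.24, 1.40, 0.81 and 1.39). MCM2, a subunit of the replicative helicase, fell in U937 -FA, IMS-M2 -FA and IMS-M2 +FA (log2 -1.17, -0.64 and -0.96), and its change of -0.17 in U937 +FA did not pass. The part of cell cycle phase in the rise of RRM2 was not tested. The genes nearest to RRM2 in pattern over the 24 libraries, by the same correlation as for CAD, were HMGN2 and TES (r = 0.994 each), ALDH9A1 (r = 0.990), PNPLA8 and SLC44A1 (r = 0.988 each).

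**Figure D3:**
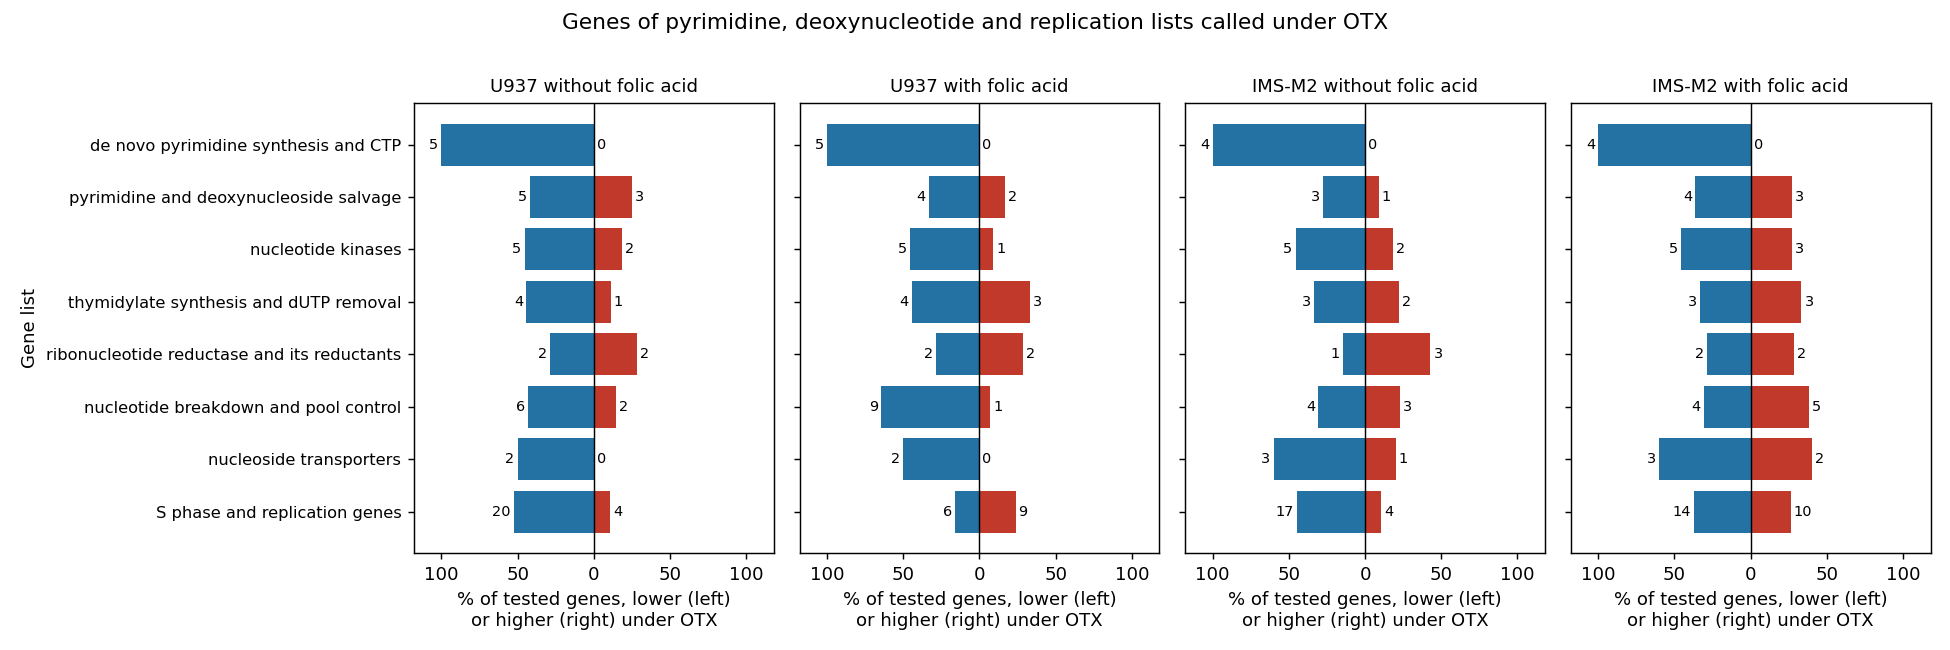
Percent of the tested genes of each list that fell (left, blue) or rose (right, red) with OTX in each of the 4 tables, with the gene counts printed at the bars. Every tested gene of the de novo and CTP list, which includes CAD, DHODH and UMPS, fell in all 4 tables. The S phase list had 20 falling genes of 38 in U937 -FA and 6 in U937 +FA. In the direct test of that difference, 7 of the 38 had a lower OTX change without folic acid and 31 did not pass. Of all genes, 1.27% were lower in that test.

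The next comparison, which the series title poses, was whether removing folic acid changed the response to OTX. The OTX change without folic acid was set against that with it within each line, so a constant scaling between tables largely cancels. In U937, none of the 10 genes passed limma at an adjusted p of 0.05, and 5 had an unadjusted p below 0.05, as did 33.9% of all genes tested. At the adjusted threshold, 0.741% of all genes were higher and 1.27% lower. These 225 genes became 2704 without DMSO column 1 of U937 -FA and 2184 without DMSO replicate 1 of U937 +FA, and 1 to 79 without any of the other 10 libraries. CAD had a difference of -0.68 (95% interval -1.03 to -0.32, adjusted p = 0.0518), with a fall of 66.2% without and 45.4% with folic acid. UCK2 differed by -0.60 (-0.92 to -0.27, adjusted p = 0.0527), RRM1 by -0.40 (-0.65 to -0.15, adjusted p = 0.059) and RRM2 by -0.50 (-0.83 to -0.17, adjusted p = 0.0652). CMPK1 differed by 0.37 (0.01 to 0.73, adjusted p = 0.144). CAD, UCK2, RRM1 and RRM2 all passed when DMSO column 1 of U937 -FA was left out (adjusted p 0.0209 to 0.0412) or DMSO replicate 1 of U937 +FA (0.0222 to 0.0321), and none of them passed without any of the other 10 U937 libraries. Not all of these genes are independent. Centred on group means over the 24 libraries, Pearson r was 0.788 for CAD and UCK2 and 0.831 for RRM1 and RRM2. UCK2 had 0.453 with RRM1 and 0.475 with RRM2, and CAD had -0.026 and -0.099 with them. DHODH differed by -0.05 (-0.31 to 0.20), and SAMHD1 by -0.04 (-0.36 to 0.28).

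In IMS-M2, DTYMK had a lower OTX change without folic acid than with it, by -1.11 (95% interval -1.72 to -0.50, limma adjusted p = 0.0391), with a change of -0.45 without and 0.66 with folic acid. It was the 1 gene of the 10 that passed, beside 3.33% of all genes higher and 3.61% lower. Of the 9 genes of the thymidylate list, DTYMK was again the 1 that passed, and the list median was 0.064. DUT differed in the same direction, by -0.69 (-1.13 to -0.24), and did not pass (adjusted p = 0.0602). The 2 genes are not independent: centred on group means, they correlated at Pearson r of 0.530 over the 24 libraries. DMSO replicate 3 of IMS-M2 +FA was the lowest of its group for both, at 26.5 FPKM for DTYMK and 138 FPKM for DUT. The DTYMK call was lost in 10 of the 12 fits that left out 1 library, all but those without DMSO replicate 1 of IMS-M2 +FA or OTX replicate 2 of IMS-M2 -FA, with an adjusted p of up to 0.114. It was also lost with no filter on low values (adjusted p = 0.0805) and after rescaling to a sum of 1000000 per library (adjusted p = 0.0501). The DUT difference passed in those same 2 fits (adjusted p = 0.0296 and 0.0204). The other 8 genes had intervals that included 0, apart from CAD, whose difference of 0.36 (0.02 to 0.70) did not pass (adjusted p = 0.148). RRM2 differed by -0.14 (-0.46 to 0.18).

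The last comparison set the OTX change of U937 against that of IMS-M2, and it uses the same libraries as the tests above. Without folic acid, CAD, DHODH, UMPS and UCK2 fell further in U937 than in IMS-M2. These and SAMHD1 were 5 genes of the 10 with a lower change in U937 and 0 had a higher one, beside 21.5% of all genes lower and 21.5% higher. The difference was -1.03 ± 0.16 for CAD (limma adjusted p = 3.92e-05), -0.66 ± 0.13 for DHODH (adjusted p = 0.000377), -0.47 ± 0.09 for UMPS (adjusted p = 0.00027) and -0.76 ± 0.14 for UCK2 (adjusted p = 0.00018). For SAMHD1, with a change of -0.03 in U937 and 0.62 in IMS-M2, it was -0.65 ± 0.15 (adjusted p = 0.00146). RRM2 differed by 0.02 (95% interval -0.28 to 0.33), so a line difference of more than 0.33 in its log2 change lies outside the interval.

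With folic acid, 6 of the 10 genes had a lower change in U937 and 1 a higher one, beside 22.9% of all genes lower and 27.7% higher. DHODH again fell further in U937, by -0.79 ± 0.13 (limma adjusted p = 5.26e-05), and this call held in every fit that left out 1 library. CAD did not differ detectably, at 0.01 (95% interval -0.33 to 0.35), and neither did UCK2, at -0.06 (-0.35 to 0.22). The lower ones also held UMPS at -0.25 (adjusted p = 0.0228), CMPK1 at -0.42 (0.045), DTYMK at -1.34 (0.0179), DUT at -0.62 (0.0167) and SAMHD1 at -0.41 (0.0262). RRM2 had the higher change, by 0.38 (adjusted p = 0.0374). These 6 calls were less firm. CMPK1 passed only in the fits without DMSO replicate 3 of U937 +FA, DMSO replicate 2, OTX replicate 1 or OTX replicate 3 of IMS-M2 +FA, and was lost in the other 8 (limma adjusted p up to 0.142). RRM2 passed only in the fits without replicate 1 of either U937 +FA group, DMSO replicate 1 or OTX replicate 2 of IMS-M2 +FA, and was lost in the other 8 (adjusted p up to 0.114). SAMHD1 was lost without replicate 1 of any of the 4 +FA groups or OTX replicate 2 of IMS-M2 +FA (adjusted p up to 0.0793). UMPS was lost without DMSO replicate 1 or OTX replicate 2 of U937 +FA or DMSO replicate 1 of IMS-M2 +FA (adjusted p up to 0.0699). DTYMK was lost without DMSO replicate 2 or OTX replicate 3 of U937 +FA or DMSO replicate 3 of IMS-M2 +FA (adjusted p up to 0.0590), and DUT without DMSO replicate 2 of U937 +FA (adjusted p = 0.0546) or OTX replicate 2 of IMS-M2 +FA (adjusted p = 0.0582). Without folic acid, DTYMK was gained without DMSO column 1 of U937 -FA (adjusted p = 0.0470), and DUT without OTX replicate 2 of IMS-M2 -FA (adjusted p = 0.0229).

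MYC averaged 20.2 FPKM in OTX and 177 FPKM in DMSO libraries of U937 -FA, 23.96 and 196 FPKM in U937 +FA, 119 and 183 FPKM in IMS-M2 -FA, and 142 and 197 FPKM in IMS-M2 +FA. By these means MYC fell further in U937 in both conditions. CAD, DHODH and UMPS fell further in U937 without folic acid. With folic acid DHODH and, less firmly, UMPS did so, and CAD did not differ detectably. The part of MYC in the line difference was not tested.

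**Figure D4:**
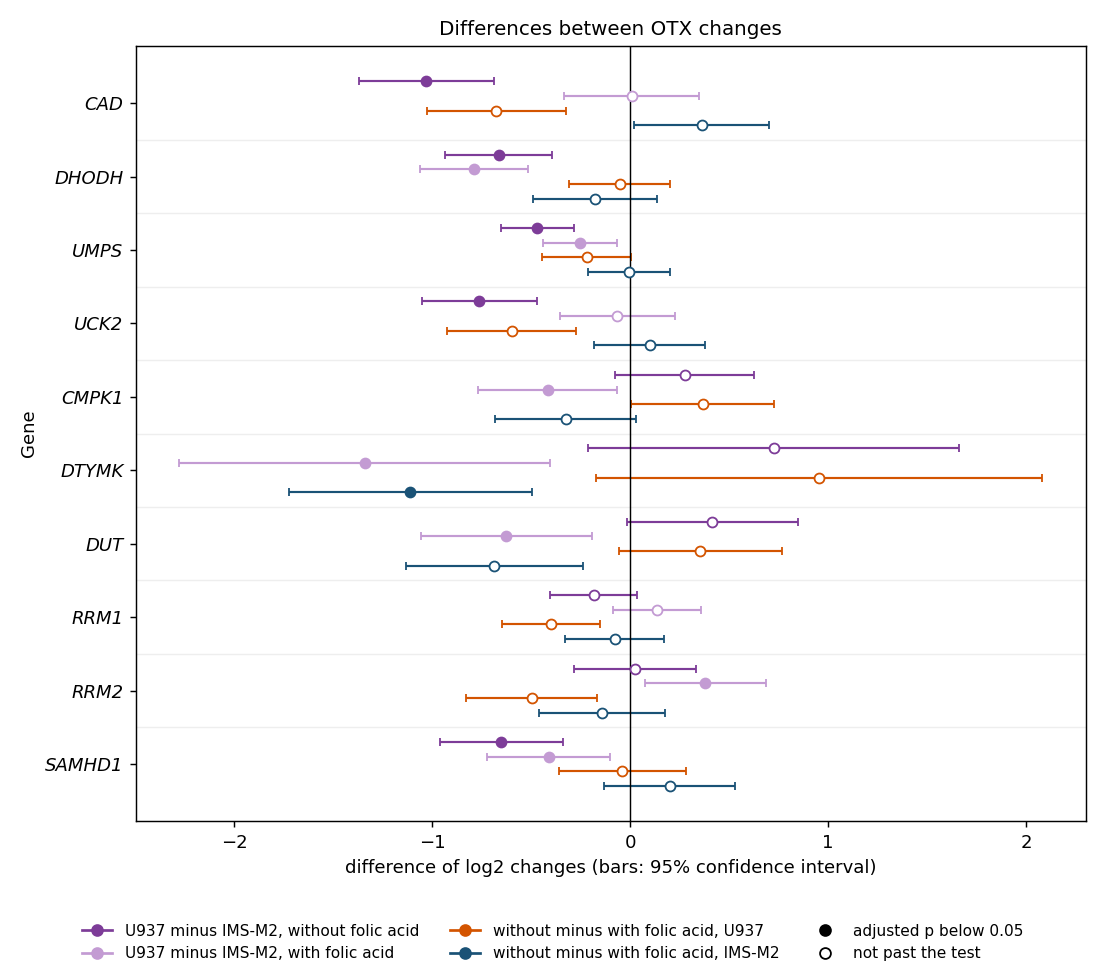
Differences between OTX changes of the 10 genes on the log2(FPKM + 1) scale, with 95% intervals from limma: -FA minus +FA in each line, and U937 minus IMS-M2 in each folic acid condition. Filled markers passed an adjusted p of 0.05. DHODH and UMPS lie below 0 in both line differences, and in the folic acid differences DTYMK in IMS-M2 is the 1 filled marker.

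Without OTX, the levels with and without folic acid come from separate tables and are given as levels. In U937, CAD averaged 64.3 ± 7.92 FPKM in -FA and 50.2 ± 6.05 FPKM in +FA DMSO libraries, UCK2 51.0 ± 6.01 and 42.3 ± 5.32 FPKM, and RRM2 166 ± 7.54 and 156 ± 17.9 FPKM. The libraries of CAD overlapped between the conditions, as did those of UCK2 and RRM2. DUT averaged 139.5 ± 21.2 FPKM in -FA and 193 ± 25.4 FPKM in +FA DMSO libraries of U937, with no overlap. In IMS-M2, CAD averaged 34.6 ± 1.73 FPKM in -FA and 46.7 ± 6.65 FPKM in +FA DMSO libraries, with no overlap, and DTYMK 58.4 ± 7.56 and 38.1 ± 15.2 FPKM, with overlap (SD, n = 3 each). DUT averaged 206 ± 17.0 FPKM in -FA and 150.2 ± 11.01 FPKM in +FA DMSO libraries of IMS-M2, also with no overlap and in the other direction than in U937. RRM2 was 85.1 ± 1.55 and 74.97 ± 10.4 FPKM in the same groups, with overlap. Ordered by group mean, RRM2 ran from 74.97 FPKM in IMS-M2 +FA DMSO to 557 FPKM in U937 +FA OTX, and DMSO libraries of U937 lay below OTX libraries of IMS-M2. DHODH ran from 2.33 FPKM in U937 -FA OTX to 9.51 FPKM in U937 +FA DMSO, with the 4 OTX groups at the low end.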

How the data were processed

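The labels describe TruSeq stranded mRNA libraries from RNA extracted with a Qiagen RNeasy Plus kit. Per the submitters' processing notes, the tools were bcl2fastq 2.17.1.14, TopHat2 2.1.1 and Cuffdiff 2.2.1 with hg19, with no settings given. The deposited values were read as FPKM. The headers do not name the unit, which was taken from the fractional values, the library sums and the layout. The authors deposited 4 tables, 1 for each line and folic acid condition, with 6 libraries each. No common normalization of the tables is stated, so levels across tables were described and not tested. The files hold no counts, so depth is unknown and no counting intervals are given. Columns were matched to samples by title. The 6 U937 -FA columns carry numbers from 0 where the labels count from 1, so they were matched to groups only.

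The model was limma (version 3.58.1, R 4.3.3), run on log2(FPKM + 1), a scale that understates changes of low genes. Each line's 12 libraries were fitted as group means with an intensity trend, and all 24 for line differences. A gene was kept where 1 or more group means reached 1 FPKM, and p-values were Benjamini-Hochberg adjusted over all genes tested, with calls at 0.05. The intervals are 95% intervals from the same fits. These p-values measure only the spread between libraries, which may be technical. Replicates correlated within groups at r of 0.989 to 0.997. The fit was tested on simulated data. Figures were drawn with Python 3.11.15, pandas 2.3.3, numpy 2.4.6 and matplotlib 3.10.9.

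The members and lists were chosen with earlier results of these data known. All 10 members were named. From each pathway list, genes were named among the 3 called genes per direction and comparison with the smallest p, besides the 5 genes most correlated with CAD and with RRM2 among those averaging at least 5 FPKM, and MYC and HEXIM1. The result of 1 gene of the thymidylate list is not reported here. Marker genes named beside the results came from the marker lists and were chosen after their values were seen. Alternatives were a pseudocount of 0.1 FPKM, no filter, a filter at 5 FPKM, median-of-ratios rescaling, rescaling to a sum of 1000000 per library, no trend, fits of single tables, a replicate block, and leaving out each library.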

Additional observations from a re-analysis of the deposited data

Results flagged for a closer look

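The OTX change differed between the lines, by a limma test of the difference itself (U937 minus IMS-M2, log2), for 5 of the 10 genes without folic acid and 7 with it. Of all genes tested, 21.5% had a lower and 21.5% a higher change in U937 without folic acid, and 22.9% and 27.7% with it. Leaving out 1 library left 5 to 6 of the 10 genes called without and 3 to 6 with folic acid. Without folic acid the differences were -1.03 for CAD, -0.66 for DHODH, -0.47 for UMPS, -0.76 for UCK2 and -0.65 for SAMHD1. With folic acid they were -0.79 for DHODH, -0.25 for UMPS, -0.42 for CMPK1, -1.34 for DTYMK, -0.62 for DUT, 0.38 for RRM2 and -0.41 for SAMHD1. DHODH, UMPS and SAMHD1 are in both sets. The OTX change of DTYMK in IMS-M2 differed between folic acid conditions, by -1.11 without minus with folic acid. That call was lost in 10 of 12 fits that left out 1 library, with no filter (limma adjusted p = 0.0805) and after rescaling (adjusted p = 0.0501).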

How the results depend on the processing

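Over the alternatives, the OTX changes of the 10 genes kept their direction and side of the threshold in 522 of the values recomputed, lost a call in 4, gained one in 9 and turned direction in 11. For the differences these numbers were 646, 43, 14 and 23. Pathway genes kept 1760 values and lost 74 calls. Every turn was of a value that had not passed the test. Rescaling to a sum of 1000000 per library gave 0.080 for SAMHD1 in U937 -FA, 0.0097 for RRM1 in IMS-M2 +FA, 0.057 for DHODH and 0.077 for SAMHD1 in the U937 folic acid difference, and -0.056 for CAD in the line difference with folic acid. Median-of-ratios rescaling gave -0.012 for SAMHD1 in U937 +FA and -0.043 for CAD in the same line difference. Rescaling to a sum of 1000000 moved the median of all genes to 0.11 in U937 -FA and to 0.14 in the line difference without folic acid, against -0.02 in both as deposited. It also gained CMPK1 in U937 -FA (0.33) and DUT in the line difference without folic acid (0.60), and lost RRM2 in the line difference with folic acid (0.31, limma adjusted p = 0.0504). With no filter, CMPK1 was lost there (adjusted p = 0.0587). The cause was not tested.

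Counts in the folic acid differences were the least stable. In U937, 225 genes were called, against 31 with a pseudocount of 0.1 FPKM, 128 with no filter and 3 after rescaling to a sum of 1000000. In IMS-M2, 779 genes and 1 member were called, against 445 and 0 with no filter and 496 and 0 after rescaling to a sum of 1000000. A filter at 5 FPKM removed SAMHD1, which then had no value.

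Leaving out 1 library gave 6 to 7 members called in U937 -FA, 5 to 5 in U937 +FA, 5 to 6 in IMS-M2 -FA and 6 to 8 in IMS-M2 +FA. It gave 0 to 4 and 0 to 2 in the U937 and IMS-M2 folic acid differences, and 5 to 6 and 3 to 6 in the line differences without and with folic acid. Over all genes the ranges were 5650 to 6693, 5449 to 6106, 5680 to 5987 and 6444 to 7471 for the OTX comparisons in that order, 1 to 2704 and 82 to 3429 for the folic acid differences, and 4551 to 5711 and 5312 to 6581 for the line differences. Values that turned direction ranged from -0.16 to 0.62 for DTYMK and -0.14 to 0.036 for SAMHD1 in U937 -FA, -0.036 to 0.079 for SAMHD1 in U937 +FA, and -0.12 to 0.013 for RRM1 in IMS-M2 +FA. They ranged from -0.15 to 0.030 for SAMHD1 in the U937 folic acid difference, -0.059 to 0.047 for UMPS in that of IMS-M2, -0.038 to 0.12 for RRM2 in the line difference without folic acid, and -0.10 to 0.10 for CAD and -0.16 to 0.047 for UCK2 in that with it.

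With the replicate number as a block, 5, 6 and 9 members and 5865, 7083 and 7655 genes were called in U937 +FA, IMS-M2 -FA and IMS-M2 +FA, and 2 members and 1920 genes in the IMS-M2 folic acid difference. The block gained UCK2 in IMS-M2 -FA (limma adjusted p = 0.0332), CMPK1 in IMS-M2 +FA (0.0149) and DUT in that difference (0.0368). The numbers were not taken to pair the libraries: deviations of same-numbered libraries correlated at 0.0555, 0.283 and 0.0774 in IMS-M2 +FA, 0.0908, 0.220 and 0.200 in IMS-M2 -FA, and -0.338, 0.131 and -0.239 in U937 +FA. In IMS-M2 -FA every library correlated best with its own number. In IMS-M2 +FA all did but OTX replicate 1, which correlated at 0.0664 with DMSO replicate 3. In U937 +FA not every library did. The labels do not say whether libraries were paired, so a pairing in IMS-M2 is not excluded. No block could be fitted for U937 -FA, whose columns do not carry the labels' numbers.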
